A study of Caenorhabditis elegans with 32 samples.

Results

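The genes described here are 31 protein-coding genes of Caenorhabditis elegans whose small RNAs stood high in wild-type grandchildren of one direction of a cross and low in those of the other. Wild-type animals of strain SX1263 had been crossed to BFF40 animals, which lack the germ granule proteins MEG-3 and MEG-4, and wild-type F2 descendants were sequenced from both directions. The maternal cross used BFF40 hermaphrodites and SX1263 males, and the paternal cross used SX1263 hermaphrodites and BFF40 males. A gene was taken when it averaged at least 2 CPM (counts scaled to a common total of 1000000 per library) in the wild-type strain, when every wild-type F2 library of the maternal cross lay at least 3 times above the highest one of the paternal cross, and when the maternal-cross libraries averaged at least 20 CPM. The genes sid-1 and rde-11 and a block of histone gene identifiers were left out by the same rule. Of 4488 protein-coding genes that met both floors on the level, 31 met the ratio as well. With the 2 crosses exchanged and the thresholds kept, 65 of 4763 genes met it. The genes were thus selected on their measured levels in the wild-type F2 libraries and the wild-type strain, and comparisons among those libraries are given below as a description without a test.

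In C. elegans, primary small RNAs guide RNA-dependent RNA polymerases to a transcript, and the polymerases make short secondary small RNAs antisense to it. Argonaute proteins bind the secondary small RNAs, and those of the WAGO class silence the matching gene, while CSR-1 binds small RNAs against expressed germline genes. Both kinds can pass through eggs and sperm to later generations. Germ granules, also called P granules, are condensates of RNA and protein at the nuclei of germ cells in which much of this traffic takes place. MEG-3 and MEG-4 are disordered proteins that build P granules in the early embryo, and PPTR-1, a regulatory subunit of the phosphatase PP2A, keeps them condensed in the germ lineage.

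Small RNAs were sequenced from gonads dissected from young adults grown at 20 °C on OP-50 bacteria, in 32 libraries of 11 groups. Every animal carried a transgene that expresses GFP in the germline, in SX1263 the insertion mjIs134 II with gfp::h2b::tbb-2 under the promoter Pmex-5, so the wild-type controls were transgenic too. RNA of 7 groups of 3 libraries was prepared with a miRNeasy column: SX1263, BFF40 kept for more than 80 generations as meg-3(tm4259);meg-4(ax2026), wild-type and meg-3/4 mutant F2 animals of each cross, and meg-3/4 mutant F15 descendants of the paternal cross. RNA of 4 groups was prepared with TRIZOL (phenol): untreated SX1263 and pptr-1(tm3103) animals of strain BFF39 with 3 libraries each, and F6 descendants of animals fed gfp double-stranded RNA, with 3 libraries of wild type and 2 of pptr-1. The labels do not say whether the wild-type and the mutant F2 animals of a cross had the same parents, nor whether replicates came from separate cultures, so p-values measure only the spread between these libraries. The meg-3/4 and pptr-1 genotypes are each represented by a single strain. A count is the number of small RNA reads assigned to a gene, not a level of its transcript, and the sources used here do not state how strand or reads with several matches were treated.

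Totals ran from 2684285 to 14871375 counts in the column-prepared libraries except long-term mutant replicate 3, which had 126214, and from 3660141 to 12663545 in the phenol libraries. In long-term replicate 3 a gene with 3 counts stood at 23.8 CPM, so its zeros for low genes say little. Counts on meg-3 were at most 5.90 CPM in every meg-3/4 mutant library and at least 9.94 CPM in the other column libraries, while meg-4 ranges overlapped between genotypes. Counts on pptr-1 were 17.2 to 22.3 CPM in the untreated pptr-1 mutants and 36.2 to 52.1 CPM in their wild type. Small RNAs on 7 genes of the somatic gonad summed to 107 to 119.2 CPM in SX1263 and 19.1 to 62.1 CPM in the 4 F2 groups together. Summed over 6 muscle genes the level was at most 12.2 CPM in any library, and over 6 miRNAs of somatic tissues it was at most 0.528 CPM.

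The 31 genes took 0.162 to 0.176% of all counts in SX1263 and 0.251 to 0.276% in the paternal-cross wild-type F2. They took 1.74 to 2.29% in the maternal-cross wild-type F2, the libraries that chose them. In the mutants, which the rule did not use, the share was 2.04 to 3.19% in F2 of the maternal cross, 2.59 to 2.74% in the long-term strain, 0.418 to 0.468% in F2 of the paternal cross and 0.986 to 2.03% in F15. Without plk-3, W04A8.2, ZC15.10, C15F1.8 and tpk-1, the 5 most abundant in the maternal-cross wild-type F2, the summed level was 565 to 598 CPM in SX1263, 459 to 617 CPM in wild-type and 519 to 821 CPM in mutant F2 animals of the paternal cross. The same sum was 2117 to 2879 CPM in F15, 6164 to 6933 CPM in the long-term strain, 3560 to 7815 CPM in mutant F2 and 4464 to 7231 CPM in wild-type F2 of the maternal cross. F15 replicate 3 stood at 20270 CPM with these 5 genes and at 2244 CPM without them. In these bulk samples fewer cells that make a small RNA and less of it per cell cannot be told apart.

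**Figure D1:**
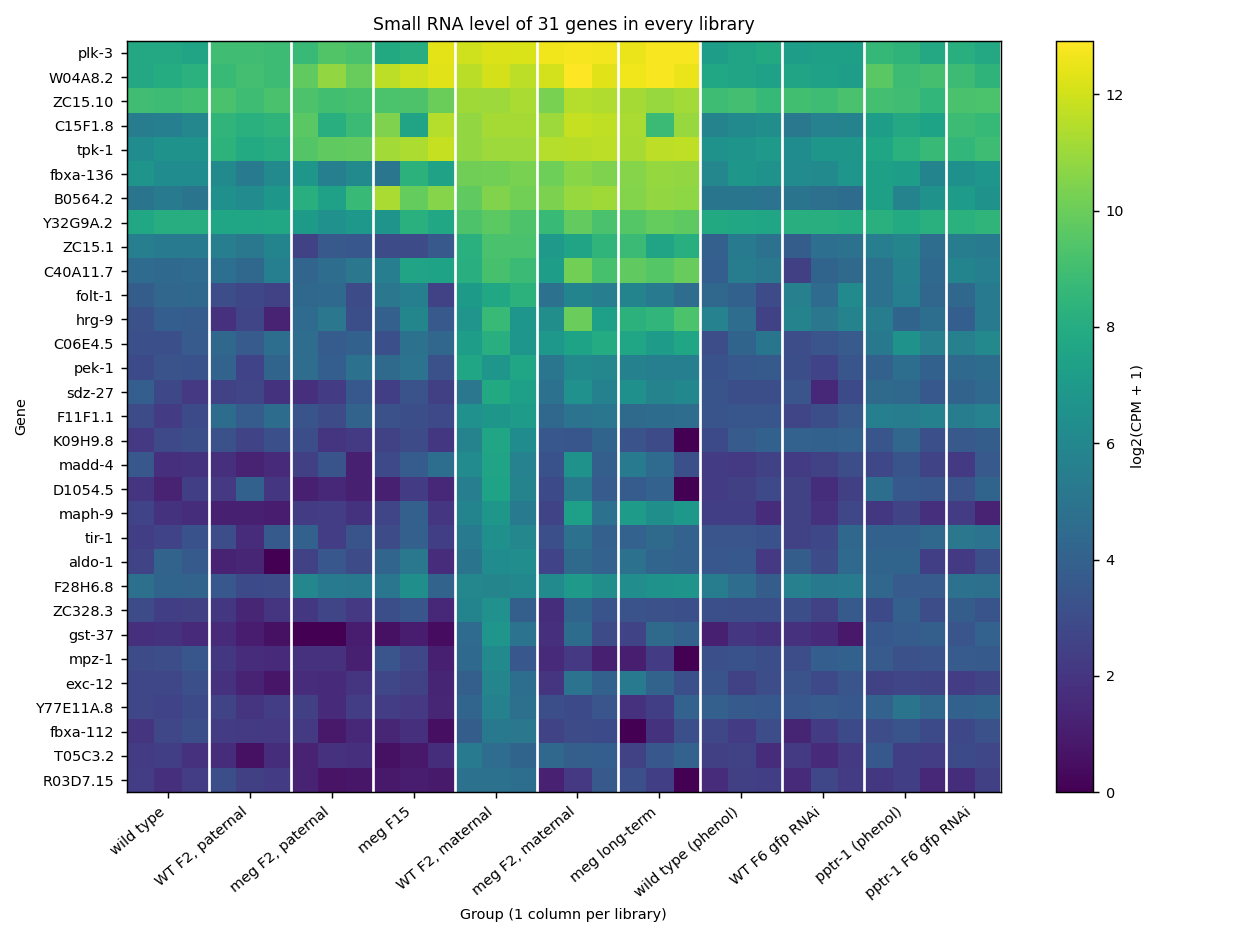
Small RNA level of the 31 genes (rows, ordered by their mean in maternal-cross wild-type F2) in all 32 libraries (columns, grouped), as log2(CPM + 1). The maternal-cross wild-type F2, maternal-cross meg F2 and long-term columns are bright for the upper rows, and for many lower rows only the maternal-cross wild-type F2 columns stand out.

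The genes fell into no single family. Of the 31, 15 had a gene name and 16 only a sequence name, for which no role is given here. The named ones include the polo-like kinase gene plk-3, the thiamine pyrophosphokinase gene tpk-1, the folate transporter gene folt-1, the heme trafficking gene hrg-9, the endoplasmic reticulum stress kinase gene pek-1, the aldolase gene aldo-1 and the glutathione S-transferase gene gst-37. Others are madd-4, which encodes a secreted guidance protein for muscle arms and axons, tir-1, an adaptor of innate immunity related to human SARM1, mpz-1, a scaffold with many PDZ domains, and maph-9, a relative of a microtubule-associated protein. The F-box genes fbxa-112 and fbxa-136 were the only pair from one named family, whose fbxa members numbered 32 among the 4488 genes.

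On WBcel235, 10 of the 31 lay on chromosome V, which is 32.3% against 15.3% of the 4488 genes, and no test of this difference was made. Their merged exons had a median of 1253 bases, against 1698 for the 4488. Pairs of neighbours made up 6 of the genes, with no protein-coding gene lying wholly between the members of a pair. On chromosome V, ZC15.1 (20306103 to 20308919) and ZC15.10 (20310736 to 20311656) lay 1817 bases apart on the plus strand. Also on the plus strand of chromosome V, Y32G9A.2 (1918509 to 1921101) and gst-37 (1921621 to 1922381) lay 520 bases apart. On the minus strand of chromosome III, aldo-1 (13563346 to 13564937) and exc-12 (13566874 to 13570447) lay 1937 bases apart. The neighbouring gene Y32G9A.3 just missed the ratio at 2.96, as did T23G11.1 at 2.96 and C46C2.2 at 2.92, while D1054.5 at 3.02, Y32G9A.2 at 3.09 and R03D7.15 at 3.18 just met it.

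Exons of 13 of the genes overlapped those of another annotated gene, and 12 of these had an overlap on the opposite strand, so that reads of the partner could not be told apart from theirs if strand was not used in counting. W04A8.2, B0564.2, folt-1, madd-4, hrg-9, maph-9 and C40A11.7 are among them, whereas plk-3, tpk-1, ZC15.1, ZC15.10, C15F1.8 and fbxa-136 overlapped no gene. B0564.2 (chromosome IV, 13107659 to 13111500, plus strand) lay 732 bases from rde-11, a gene needed for RNA interference that the rule left out. F-box genes form a large family with similar copies, so the assignment of reads between copies is uncertain for fbxa-112 and fbxa-136.

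Small RNA levels spanned a wide range. The highest mean CPM in maternal-cross wild-type F2 belonged to plk-3 (chromosome IV, 7470860 to 7473209, minus strand). Its libraries stood at 4031, 4851 and 4674 CPM there, at 498, 502 and 459.7 CPM in paternal-cross wild-type F2 and at 219, 224 and 189 CPM in SX1263. The paternal-cross libraries thus lay above SX1263 and below the maternal cross with no overlap among the 3 groups. Per kilobase of exon, the level in maternal-cross wild-type F2 was highest for ZC15.10 at 3338 CPM, followed by W04A8.2 at 2951 CPM, plk-3 at 2203 CPM and tpk-1 at 2152 CPM, and lowest for mpz-1 at 4.19 CPM.

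Thiamine pyrophosphokinase makes the cofactor thiamine pyrophosphate, and its gene tpk-1 (chromosome III, 8912144 to 8913632, plus strand) behaved much like plk-3. Its level was 1836, 2124 and 2062 CPM in maternal-cross wild-type F2, 325, 239 and 263 CPM in paternal-cross wild-type F2 and 76.7, 96.8 and 95.7 CPM in SX1263. The gene with only a sequence name C15F1.8 (chromosome II, 6975982 to 6977832, minus strand) had the largest mean ratio to SX1263, 42.7-fold, with 1797, 2305 and 2328 CPM in maternal-cross wild-type F2 against 42.1, 46.2 and 62.5 CPM. Its paternal-cross wild-type F2 libraries, at 344, 289.6 and 333 CPM, were 6.42 times SX1263 on average.

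In 7 of the 31 genes (plk-3, tpk-1, C15F1.8, W04A8.2, B0564.2, C06E4.5 and F11F1.1) all paternal-cross wild-type F2 libraries lay above all of SX1263. In 13 genes they lay below all of SX1263, and in 11 the ranges overlapped. Among the 4488 genes the corresponding shares were 15.6% above and 17.8% below, against 22.6% and 41.9% of the 31, and the rule itself favours genes that were low in the paternal cross. The 13 included hrg-9, folt-1, maph-9, madd-4 and aldo-1. For hrg-9 the paternal-cross wild-type F2 libraries were at 2.56, 5.46 and 1.47 CPM and those of SX1263 at 8.28, 13.6 and 12.5 CPM. For folt-1 they were at 7.22, 5.94 and 4.91 CPM against 13.0, 18.3 and 19.4 CPM. With 0.5 CPM added to each, the ratio of the lowest maternal-cross to the highest paternal-cross library was highest for maph-9 at 23.6, madd-4 at 18.8, hrg-9 at 17.7, folt-1 at 16.9 and fbxa-136 at 15.2.

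**Figure D2:**
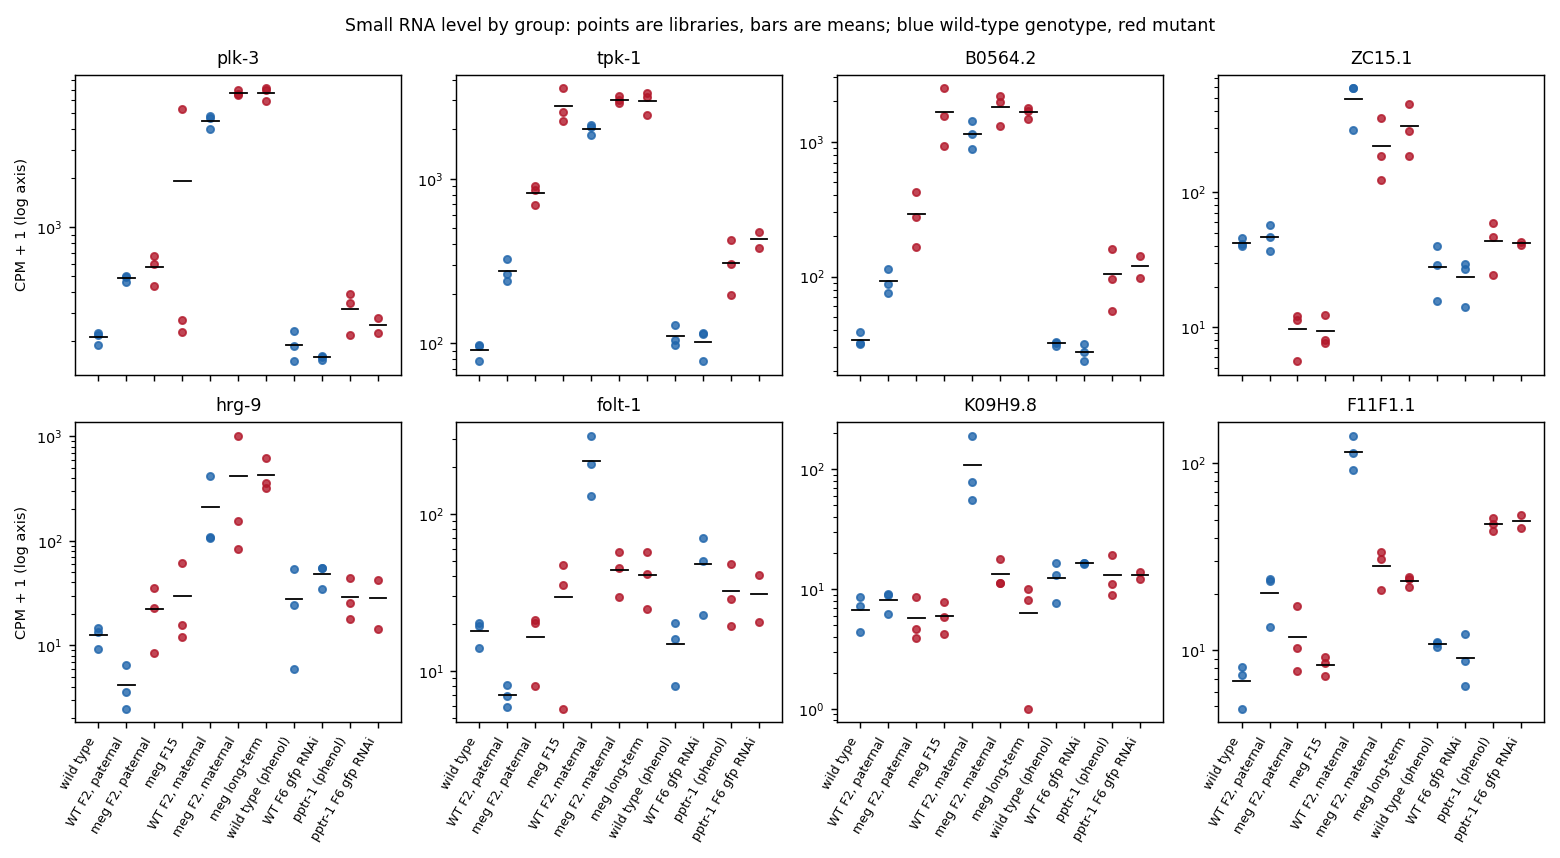
CPM + 1 on a log axis for 8 of the genes in the 11 groups. Points are libraries, black bars are group means, blue marks wild-type and red mutant genotypes. For plk-3, tpk-1 and B0564.2 the maternal-cross mutants stand at or above the wild-type F2, while for folt-1, K09H9.8 and F11F1.1 maternal-cross wild-type F2 stand above every other group.

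The highest of the 3 wild-type F2 libraries was less than 1.5 times the lowest for 9 genes and more than 3 times for another 9. Replicate 3 was the highest for 21 of the 31 genes in wild-type F2 and for 22 in mutant F2, and replicate 1 was the lowest for 21 and 27. Over the 4488 genes replicate 3 was the highest for 20.5% and 15.6%. Replicate 1 was the highest there for 63.0% and 68.3% and the lowest for 16.7% and 16.1%. For hrg-9, wild-type F2 replicates 1, 3 and 4 stood at 105, 417 and 109 CPM and mutant F2 replicates at 82.0, 1014 and 155 CPM. What replicates with the same number share was not tested.

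The comparison of mutant F2 animals between crosses asks whether the genes also differ by parent of origin in animals that lack MEG-3 and MEG-4. The rule did not use these libraries, but the labels do not say whether the animals shared parents with the wild-type F2. Replicate 3 was the highest in both maternal-cross F2 groups for 15 of the 31 genes. The comparison gave 22 of the 31 genes a higher level in the maternal cross and none a lower one (edgeR quasi-likelihood test, Benjamini-Hochberg adjusted p under 0.05). Over all 10230 features tested, 1.99% were higher and 3.08% lower, and of the 4488 genes that met both floors 1.98% were higher and 3.39% lower. The median log2 fold change was 2.80 for the 31 genes, -0.01 for the 4488 and -0.03 for all features, and each of the 31 estimates was above 0. All 3 maternal-cross libraries lay above all 3 of the paternal cross for 24 genes, or 77.4%, against 3.5% of the 4488.

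Among the abundant genes, tpk-1 stood at 2874, 2998 and 3172 CPM in mutant F2 of the maternal cross and at 697, 859 and 901 CPM in those of the paternal cross. The groups did not overlap, and the log2 fold change was 2.16 ± 0.25 (approximate SE, n = 3 and 3, edgeR adjusted p = 6.86e-05). W04A8.2 stood at 4164, 7766 and 5174 CPM against 883, 1836 and 963 CPM, a rise of 2.51 ± 0.36 (edgeR adjusted p = 0.000479). B0564.2 stood at 1312, 1958 and 2197 CPM against 276, 165 and 425 CPM, a rise of 2.96 ± 0.37 (edgeR adjusted p = 0.000106). In each of these the paternal-cross mutants were themselves above SX1263.

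ZC15.1 showed another form of the difference. Its small RNAs were at 123, 186 and 352 CPM in mutant F2 of the maternal cross and at 4.58, 11.1 and 10.4 CPM in those of the paternal cross, with SX1263 between them at 44.73, 39.0 and 40.01 CPM. The log2 fold change between the crosses was 4.99 ± 0.52 (edgeR adjusted p = 3.42e-05). Its neighbour ZC15.10 differed by 2.28 ± 0.32 (edgeR adjusted p = 0.000382), from 629, 522 and 571 CPM to 1298, 2820 and 2639 CPM, and its paternal-cross mutants were all above SX1263. The F-box gene fbxa-136 was at 1075, 1593 and 1397 CPM against 113, 47.5 and 70.4 CPM, a rise of 4.42 ± 0.58 (edgeR adjusted p = 0.000171).

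The fitted changes at the top of the list were 5.43 ± 1.1 for gst-37 (edgeR adjusted p = 0.0068) and 5.02 ± 0.70 for C40A11.7 (edgeR adjusted p = 0.000372). The gst-37 value rests on 0, 0 and 4 counts in the paternal-cross libraries, and it moved between 4.19 and 9.31 over the alternative settings. The heme gene hrg-9 rose by 4.67 ± 0.94 (edgeR adjusted p = 0.00656) and maph-9 by 4.53 ± 0.90 (edgeR adjusted p = 0.00602), both with 1 library far above the others. Without maternal-cross mutant replicate 3 the changes of hrg-9 and maph-9 were 2.73 and 2.50, with edgeR adjusted p of 0.0571 and 0.0551. For plk-3, at 6487, 6938 and 6532 CPM against 435, 671 and 597 CPM, the rise was 3.83 ± 0.86 (edgeR adjusted p = 0.0124), and without paternal-cross mutant replicate 1 or 3 its adjusted p was 0.0646 or 0.0512. Of the 22 genes, 13 kept their call in each of the 12 alternatives run.

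**Figure D3:**
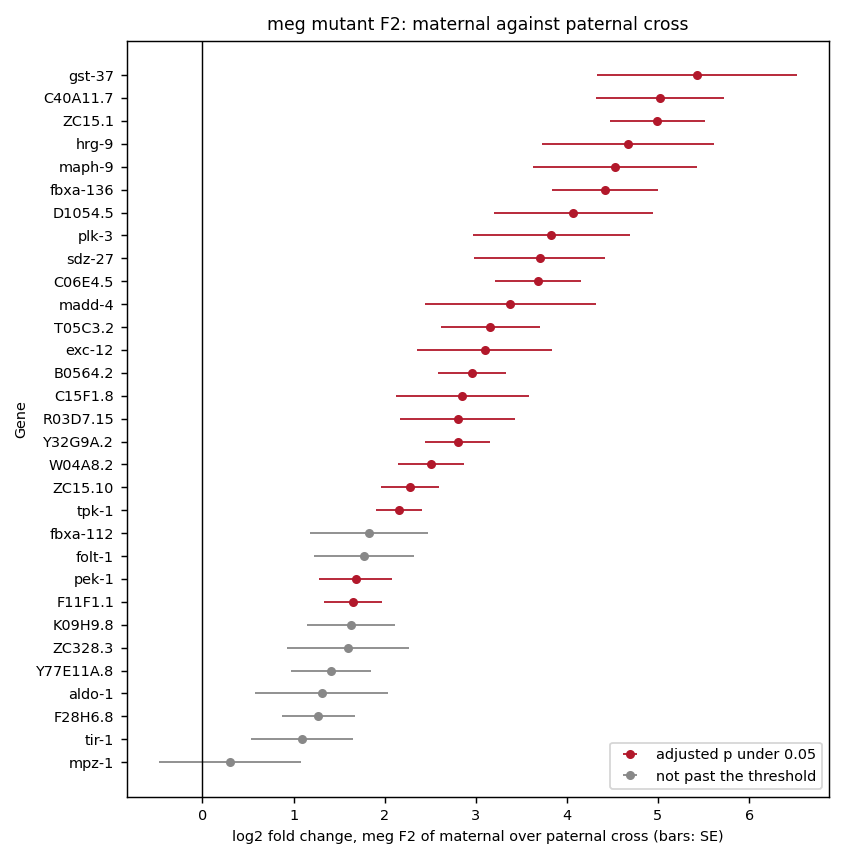
log2 fold change of the 31 genes in meg-3/4 mutant F2, maternal over paternal cross, from the edgeR fit, with approximate SE bars. All 31 points lie above 0, and the 22 red points passed an adjusted p of 0.05.

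The 9 genes that did not pass were fbxa-112, folt-1, K09H9.8, ZC328.3, Y77E11A.8, aldo-1, F28H6.8, tir-1 and mpz-1. For folt-1 the mutant libraries stood at 28.6, 55.8 and 44.5 CPM in the maternal cross and 19.2, 20.1 and 6.99 CPM in the paternal cross. They did not overlap, but the difference of 1.77 ± 0.55 had an edgeR adjusted p of 0.0711. For mpz-1 the mutant libraries of the 2 crosses lay at 1.17 to 3.45 and 1.21 to 2.64 CPM, with a difference of 0.30 ± 0.78 (edgeR adjusted p = 0.913) that was 0.00 or -0.36 when paternal-cross replicate 4 or maternal-cross replicate 3 was left out.

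Wild-type and mutant F2 of the maternal cross are compared as a description without a test, because the wild-type libraries chose the genes. All 3 wild-type F2 libraries lay above all mutant F2 libraries for 11 genes (mpz-1, pek-1, tir-1, folt-1, D1054.5, F11F1.1, aldo-1, fbxa-112, Y77E11A.8, K09H9.8 and R03D7.15), below them for 3 (plk-3, tpk-1 and F28H6.8) and overlapped them for 17. Among the 4488 genes wild-type libraries lay above for 11.6% and below for 2.0%. For K09H9.8 wild-type F2 stood at 54.2, 189.7 and 76.7 CPM, mutant F2 at 10.3, 10.2 and 16.7 CPM and SX1263 at 3.36, 6.19 and 7.53 CPM. F11F1.1 stood at 91.5, 113 and 139.6 CPM in wild-type F2, at 19.9, 29.6 and 32.5 CPM in mutant F2 and at 7.16, 3.85 and 6.39 CPM in SX1263.

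Of the 7 column-prepared groups, maternal-cross wild-type F2 had the highest mean for 18 genes, the long-term mutants for 8 and the maternal-cross mutant F2 for 5. The rule itself favours the first of these groups, since it required high levels there. The same count was not made over all genes that met both floors, so this split is a description only. The 18 are, apart from ZC15.1, genes with a mean of at most 216 CPM in that group. The other 13 include 9 of the 10 genes that were most abundant there, with ZC15.1 as the exception.

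**Figure D4:**
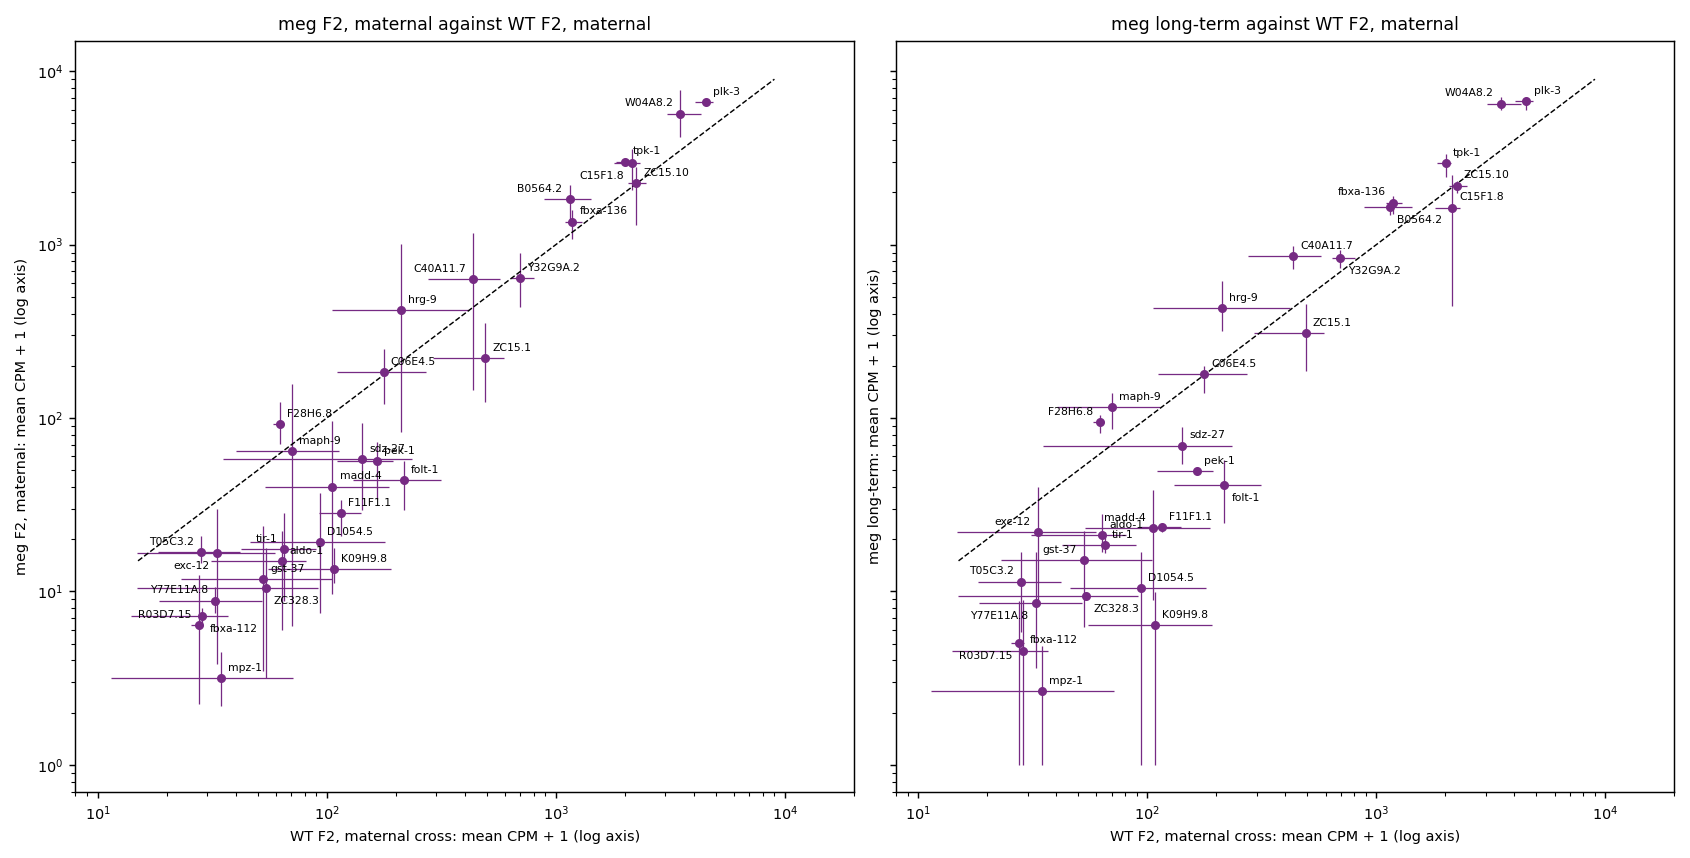
Mean CPM + 1 of the 31 genes in maternal-cross wild-type F2 (horizontal, log axis) against maternal-cross meg F2 (left) and long-term meg mutants (right, log axis); bars span the lowest to the highest library and the dashed line marks equality. Genes such as plk-3, W04A8.2 and tpk-1 lie above the line, and low genes such as K09H9.8, D1054.5 and mpz-1 lie below it.

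The long-term BFF40 strain is the mutant parent of both crosses, and its comparison with SX1263 asks which small RNAs differ in the parents. The rule used SX1263 only through its floor. In BFF40, 24 of the 31 genes were higher than in SX1263 and none lower, with 11.5% of all features and 16.0% of the 4488 genes called higher and 15.5% and 13.1% lower (edgeR, adjusted p under 0.05). Of the 24 genes, 17 kept their call in each of the 12 alternatives. The median log2 fold change was 2.62 for the 31 genes, 0.14 for the 4488 and 0.01 for all features. B0564.2 was at 1472, 1788 and 1688 CPM against 30.4, 37.5 and 30.9 CPM, the largest called change at 6.03 ± 0.42 (edgeR adjusted p = 7.6e-08). C40A11.7 followed at 876, 723 and 983 CPM against 22.1, 20.4 and 21.9 CPM, a change of 5.69 ± 0.72 (edgeR adjusted p = 3.14e-05). These 2 genes did not overlap between the strains.

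Of the 7 genes not called in BFF40, R03D7.15, K09H9.8, ZC328.3 and aldo-1 had estimates between 0.82 and 1.39, and Y77E11A.8, fbxa-112 and mpz-1 had estimates of -0.05, -1.09 and -1.15. K09H9.8 was at 8.94, 7.13 and 0 CPM in BFF40, near SX1263 and far under the maternal-cross wild-type F2, although 3 counts already amount to 23.8 CPM in the library at 0. The smallest called change but one was that of folt-1, 1.84 ± 0.56 (edgeR adjusted p = 0.0221), from 13.0, 18.3 and 19.4 CPM to 55.9, 40.7 and 23.8 CPM. Its adjusted p lay between 0.0544 and 0.119 without SX1263 replicate 1 or 2 or long-term replicate 1 or 2.

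Mutant F2 animals of the maternal cross and the long-term mutants were compared directly, 2 groups of one genotype. None of the 31 genes passed the threshold (edgeR), 1 had an unadjusted p under 0.05, DESeq2 called none, and 0.147% of all features were higher and 0.0587% lower in the F2, or 0.223% and 0.0668% of the 4488 genes. The median log2 fold change was 0.06, with estimates from -0.69 to 1.74. For plk-3 the difference was 0.06 ± 0.77, for tpk-1 0.10 ± 0.24 and for B0564.2 0.22 ± 0.34. These errors take the spread from all 7 column-prepared groups, not only from the 2 compared. The plk-3 libraries stood at 6487 to 6938 CPM in the F2 and at 5983 to 7135 CPM in the long-term strain. In F15 they ranged from 227 to 5295 CPM.

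Descendants of the paternal cross show the same genes when the BFF40 parent of the cross was the male. In mutant F2 of this cross, 6 of the 31 genes were higher than in SX1263 and 1 was lower, with 4.37% of all features and 6.62% of the 4488 genes higher and 4.82% and 4.26% lower (edgeR, adjusted p under 0.05). This comparison, that of F15 and that of BFF40 share the SX1263 libraries. C15F1.8, at 779, 272 and 451 CPM against 42.1, 46.2 and 62.5 CPM, was higher by 3.50 ± 0.75 (edgeR adjusted p = 0.00827). The thiamine gene tpk-1, at 697, 859 and 901 CPM against 76.7, 96.8 and 95.7 CPM, was higher by 3.36 ± 0.27 (edgeR adjusted p = 1.6e-06). B0564.2 and W04A8.2 were also called in each alternative, whereas pek-1 and F28H6.8 lost their call in 7 and 8 of 12. Without SX1263 replicate 1, 2 or 3 or F2 replicate 1 or 4, pek-1 had an adjusted p of 0.0542 to 0.1, and without SX1263 replicate 2 or 3 or any single F2 replicate, F28H6.8 had 0.052 to 0.171.

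ZC15.1 was the gene lower in the paternal-cross mutants, by -2.11 ± 0.48 on the log2 scale in F2 (edgeR adjusted p = 0.011). In F15 it stood at 6.64, 7.09 and 11.3 CPM, again under the 39.0 to 44.7 CPM of SX1263, by -2.08 ± 0.46 (edgeR adjusted p = 0.00652). With the long-term mutants at 453, 186 and 285 CPM, its small RNAs thus lay on opposite sides of SX1263 in mutants of one genotype. The paternal-cross wild-type F2 libraries, at 45.6, 35.4 and 55.7 CPM, overlapped SX1263.

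By the F15 generation, 7 of the 31 genes were higher than in SX1263 and 1 was lower, with 2.57% of all features and 3.21% of the 4488 genes higher and 6.21% and 6.19% lower (edgeR, adjusted p under 0.05). Deviations of same-numbered replicates correlated weakly in this pair of groups, at 0.124, 0.109 and 0.185. Between paternal-cross mutant F2 and SX1263, unlike numbers reached 0.254. What same-numbered replicates share was not tested. With the replicate number as a block, 3 genes were higher (B0564.2, tpk-1 and W04A8.2) and 1 lower (ZC15.1). The blocked fit also took its spread from the groups compared alone. In it plk-3, C15F1.8, C40A11.7 and pek-1 had no call, with edgeR adjusted p of 0.519, 0.0729, 0.0807 and 0.117. Of these, plk-3 and pek-1 also had no call when only the groups compared were fitted without a block. B0564.2 was at 2497, 932 and 1544 CPM, higher than SX1263 by 5.80 ± 0.42 (edgeR adjusted p = 1.78e-07). The thiamine gene tpk-1 was at 2240, 2567 and 3560 CPM, higher by 5.18 ± 0.29 (edgeR adjusted p = 4.12e-09). W04A8.2 was at 3147, 4074 and 5270 CPM, higher by 4.23 ± 0.39 (edgeR adjusted p = 1.7e-06). These changes come from the fit without a block. Over the 12 alternatives (edgeR or DESeq2), the adjusted p of B0564.2, tpk-1 and W04A8.2 reached 0.00807, 0.00551 and 0.00814.

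In F15 the polo-like kinase gene plk-3 was split among libraries. Replicates 1 and 2 stood at 227 and 268 CPM, near the 189 to 224 CPM of SX1263, and replicate 3 at 5295 CPM, near the long-term mutants at 5983 to 7135 CPM. The fitted change against SX1263 was 3.61 ± 0.85 (edgeR adjusted p = 0.0101), and without replicate 3 it was 0.22 (edgeR adjusted p = 0.767). C15F1.8 varied too, at 1356, 187 and 2878 CPM in F15 and 2508, 440.2 and 1957 CPM in the long-term strain, with replicate 2 the lowest in both groups. For pek-1, at 20.8, 29.7 and 8.32 CPM against 6.49, 8.87 and 8.41 CPM, leaving out any SX1263 replicate or F15 replicate 1 or 2 gave an edgeR adjusted p of 0.0684 to 0.185.

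Against the long-term mutants, the F15 mutants of the same genotype were lower at 16 of the 31 genes and higher at none, while 2.22% of all features and 2.25% of the 4488 genes were lower and 3.0% and 3.34% higher (edgeR, adjusted p under 0.05). Of the 16 genes, 8 kept their call in each of the 12 alternatives. The median log2 fold change was -1.68 for the 31 genes, 0.00 for the 4488 and 0.03 for all features. ZC15.1 had the largest change at -5.37 ± 0.52 (edgeR adjusted p = 8.93e-06). The glutathione S-transferase gene gst-37 followed at -4.81 ± 0.93 (edgeR adjusted p = 0.00584), from 5.22, 21.4 and 15.9 CPM in the long-term strain to 0.492, 0.961 and 0.366 CPM in F15, and at -3.61 (adjusted p = 0.127) without long-term replicate 2. The F-box gene fbxa-136, at 1508, 1897 and 1830 CPM in the long-term strain and 33.1, 318 and 173 CPM in F15, differed by -3.51 ± 0.55 (edgeR adjusted p = 0.00131).

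Not all genes were lower in F15. B0564.2 differed from the long-term strain by -0.23 ± 0.34 and tpk-1 by -0.25 ± 0.24, with edgeR adjusted p of 0.792 and 0.633. Without F15 replicate 1 the number of genes called lower was 10. For plk-3 the value was -1.76 ± 0.79 (edgeR adjusted p = 0.211) and, without F15 replicate 3, -5.12 (edgeR adjusted p = 3.15e-09).

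Between F2 and F15 mutants of the paternal cross, 3 genes were higher in F15 and none lower, with 0.166% of all features and 0.201% of the 4488 genes higher and 0.743% and 0.914% lower (edgeR, adjusted p under 0.05). They were B0564.2 at 2.52 ± 0.36 (edgeR adjusted p = 0.00139), tpk-1 at 1.82 ± 0.25 (edgeR adjusted p = 0.00111) and W04A8.2 at 1.8 ± 0.35 (edgeR adjusted p = 0.0164). The values of tpk-1 in order of group were 697 to 901 CPM in F2 and 2240 to 3560 CPM in F15, without overlap. No gene was called when the spread was taken from these 2 groups alone, and 6 were called without F15 replicate 1. W04A8.2 had an adjusted p of 0.0593 without F15 replicate 3 and of 0.0977 or 0.0797 without F2 replicate 1 or 4.

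Mutants of pptr-1 lack another protein of the germ granule pathway and came from no cross to BFF40. In untreated pptr-1 mutants 10 of the 31 genes were higher than in the wild type prepared with phenol and none was lower, where 4.14% of all features and 3.92% of the 4488 genes were higher and 2.35% and 2.94% lower (edgeR, adjusted p under 0.05). The median log2 fold change was 0.81 for the 31 genes, -0.09 for the 4488 and 0.02 for all features. Libraries of the mutant lay above all wild-type libraries for 14 genes, or 45.2%, against 7.6% of the 4488. The 31 genes took 0.254 to 0.308% of counts in pptr-1 and 0.156 to 0.171% in its wild type. Tissue markers moved in this comparison as well (edgeR). The yolk protein genes vit-6 and vit-2, among 6 tested intestine markers, were higher by 2.06 ± 0.50 and 1.99 ± 0.45 (edgeR adjusted p = 0.0307 and 0.0195), and the intestine list summed to 38.3 to 54.3 CPM in pptr-1 and to 7.195 to 24.95 CPM in its wild type. Of 6 nerve cell markers egl-21 was lower, by -2.14 ± 0.57 (edgeR adjusted p = 0.0463), and that list summed to 122 to 143 CPM against 165 to 257 CPM. The part of cell makeup in the pptr-1 result was not tested.

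The largest called changes in pptr-1 were those of gst-37, at 10.8, 12.5 and 14.0 CPM against 1.18, 3.16 and 2.61 CPM, with 2.48 ± 0.40 (edgeR adjusted p = 0.00301), and of F11F1.1, at 46.5, 42.5 and 49.9 CPM against 9.41, 10.0 and 9.91 CPM, with 2.33 ± 0.22 (edgeR adjusted p = 9.58e-05). Neither pair of groups overlapped. B0564.2, at 160.1, 54.6 and 94.9 CPM against 31.3, 31.8 and 29.6 CPM, was higher by 1.86 ± 0.35 (edgeR adjusted p = 0.00709). C15F1.8, W04A8.2 and tpk-1 were higher by 1.5 ± 0.2, 1.74 ± 0.24 and 1.56 ± 0.23 with edgeR adjusted p of 0.000901, 0.00127 and 0.00193. These 6 genes passed in each of the 12 alternatives.

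The other 4 genes called in pptr-1, plk-3, D1054.5, C06E4.5 and Y77E11A.8, lost their call in 8, 5, 3 and 7 of the alternatives. Without wild-type replicate 4 the number called was 6, and the adjusted p of these 4 was then 0.131, 0.112, 0.0925 and 0.137. Other single libraries also ended a call, with adjusted p up to 0.149 for plk-3 (without any wild-type replicate or mutant replicate 1 or 5), 0.126 for D1054.5 (any wild-type replicate or mutant replicate 1), 0.0873 for C06E4.5 (mutant replicate 5) and 0.164 for Y77E11A.8 (wild-type replicate 5 or mutant replicate 5 or 7). ZC15.1, ZC15.10, fbxa-136 and hrg-9, all called in BFF40, had values of 0.74 ± 0.38, 0.09 ± 0.19, 0.55 ± 0.35 and 0.15 ± 0.66 here.

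**Figure D5:**
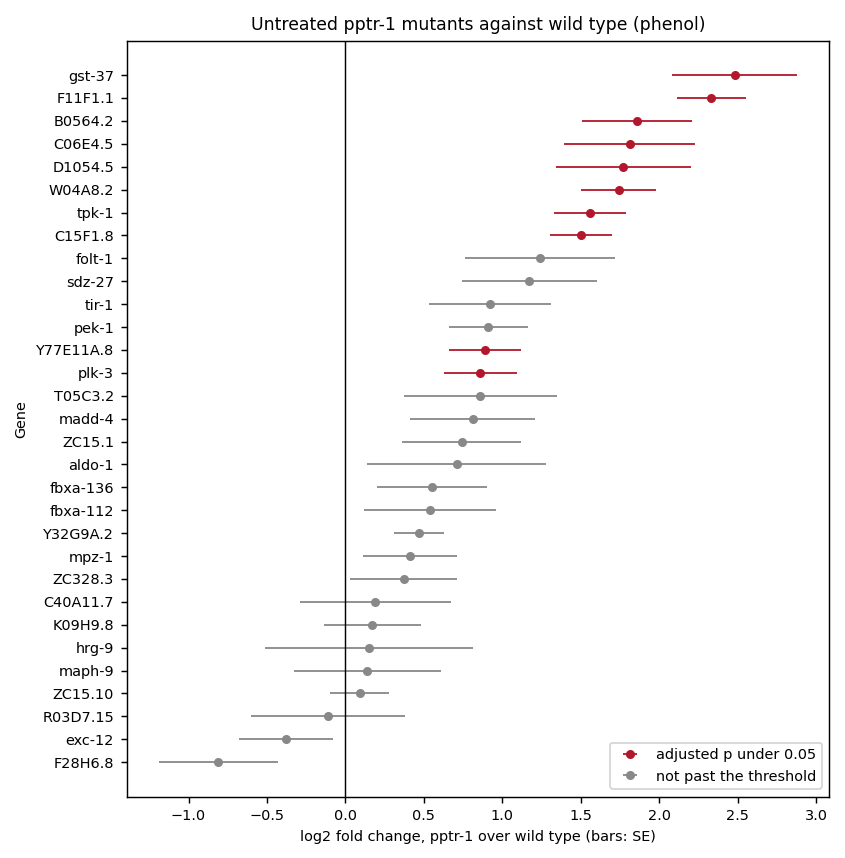
log2 fold change of the 31 genes in untreated pptr-1 mutants over wild type (phenol preparation), from the edgeR fit, with approximate SE bars. The 10 red points passed an adjusted p of 0.05, and gst-37 and F11F1.1 lie at the top with 2.48 and 2.33.

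The F6 descendants of animals treated with gfp double-stranded RNA were set beside these without a test. All wild-type F6 libraries lay above the untreated wild type for folt-1 and Y32G9A.2, and none of the 31 genes lay below it. Those 2 genes are 6.5% of the 31, and of the 4488 genes 4.7% lay above and 12.0% below. The 2 pptr-1 F6 libraries lay above all wild-type F6 libraries for 18 of the 31 genes and below them for exc-12, F28H6.8 and K09H9.8, where 33.7% of the 4488 genes lay above and 13.0% below. C15F1.8 was at 467 and 409 CPM in the 2 pptr-1 F6 libraries, at 34.8, 51.7 and 53.3 CPM in wild-type F6, at 148, 225 and 181 CPM in untreated pptr-1 and at 53.0, 71.2 and 82.9 CPM in untreated wild type. tpk-1 was at 379 and 476 CPM in pptr-1 F6 and at 77.0, 113 and 114 CPM in wild-type F6.

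None of the 31 genes was on a list of small RNA pathway genes or tissue markers. Between the 2 crosses in mutant F2, small RNAs on 17 tested Argonaute genes, on 14 genes of nuclear RNA interference and on 22 germ granule genes included no called change, with medians of 0.12, 0.00 and 0.06. Of 29 tested genes for making small RNAs, 3 were lower in the maternal cross and none was higher (edgeR). They were smut-1, a DEAD-box helicase gene, at -1.16 ± 0.30 (adjusted p = 0.0308), mut-15 at -0.58 ± 0.14 (adjusted p = 0.0219) and ekl-1 at -0.57 ± 0.16 (adjusted p = 0.043).

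In the comparison of BFF40 with SX1263 the same lists had 4 higher and 2 lower Argonaute genes, 3 higher and 7 lower genes for making small RNAs, 1 higher and 1 lower gene of nuclear RNA interference and 2 higher and 2 lower germ granule genes (edgeR, adjusted p under 0.05). The Argonaute genes alg-3, wago-1 and csr-1 had more small RNA counts, by 4.01 ± 1.19, 0.99 ± 0.22 and 0.75 ± 0.17 on the log2 scale (edgeR adjusted p = 0.0186, 0.00342 and 0.00377). The Argonaute gene ergo-1 had fewer, by -0.74 ± 0.20 (edgeR adjusted p = 0.0114). Of the genes for making small RNAs, sid-2, rrf-2 and the helicase gene smut-1 were lower by -5.71 ± 2.02, -1.91 ± 0.43 and -1.55 ± 0.33 (edgeR adjusted p = 0.0459, 0.00378 and 0.00259). The gene eri-6 was higher by 1.03 ± 0.22 (edgeR adjusted p = 0.00272). Tissue markers were called here too, among 3 tested somatic gonad, 2 muscle, 6 nerve cell and 6 oocyte genes. The somatic gonad genes lim-7 and lag-2 were lower by -2.14 ± 0.60 and -1.47 ± 0.51 (edgeR adjusted p = 0.0143 and 0.0393), and their list summed to 23.8 to 33.7 CPM in BFF40 and to 107 to 119.2 CPM in SX1263. The muscle myosin gene unc-54 was lower by -2.84 ± 0.80 (edgeR adjusted p = 0.0145), with list sums of 0 to 1.86 CPM against 10.7 to 12.2 CPM. Nerve cell markers went both ways, egl-21 by -3.75 ± 1.14 and unc-119 by 1.79 ± 0.33 (edgeR adjusted p = 0.0215 and 0.000757). Of the oocyte genes only oma-2 was called, lower by -1.03 ± 0.26 (edgeR adjusted p = 0.00687), and the median of that list was -0.09. Against SX1263, unc-54 was lower also in mutant F2 and F15 of the paternal cross, by -3.17 ± 0.71 and -3.41 ± 0.68 (edgeR adjusted p = 0.0104 and 0.003). The part of cell makeup in these comparisons was not tested.

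Marker lists of other tissues gave 1 called gene in mutant F2, the somatic gonad gene lim-7, lower in the maternal cross by -2.16 ± 0.60 (edgeR adjusted p = 0.0443). The 7 somatic gonad genes summed to 19.1 to 28.8 CPM in those libraries and to 29.4 to 62.1 CPM in the paternal cross. None of the tested genes of intestine (6), muscle (2), nerve cells (6), sperm (2) or oocytes (6) was called. Sums of intestine genes were 8.71 to 34.8 CPM in mutant F2 of the maternal cross and 8.75 to 16.9 CPM in those of the paternal cross, and the part of cell makeup in the results was not tested.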

How the data were processed

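Small RNAs of dissected gonads were counted per gene in 32 libraries. The deposited files hold whole-number read counts for 46779 gene identifiers, not normalized; per the submitters' processing notes cutadapt, FastQC, HTSeq and DESeq2 were used with build ce11, without versions. Strand use and the treatment of reads with several matches are not given in the sources used here. Counts were scaled to CPM by the sum over gene identifiers, lines for unassigned reads left out; gene identifiers held 53.0 to 61.8% of all counts. Gene positions came from the WBcel235 annotation of Ensembl release 115.

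Testing used edgeR 4.0.16 under R 4.3.3, separately for each RNA preparation and for features that reached 10 counts in 3 or more of its libraries (quasi-likelihood, TMM scaling, 1 mean per group over all groups of that preparation, two-sided, Benjamini-Hochberg over all features, threshold 0.05). All 31 genes passed this filter. The test was also run on simulated counts, with an outcome not given here. Their libraries were drawn independently, so that run cannot show effects of a batch or of shared replicate numbers. Alternatives were other scalings, DESeq2 1.42.0, no filter, only the groups compared, each replicate left out and a replicate block. The block fits used only the groups compared, and of these only libraries whose replicate number occurred in each group. Replicate numbers pair samples by the check used only for F15 against SX1263, where deviations from the group mean of same-numbered libraries correlated at 0.124, 0.109 and 0.185. The check needed 3 shared numbers. In pptr-1 against its wild type only numbers 1 and 5 were shared, at 0.274 and 0.346, and the values given for it have no block.

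The genes and lists were chosen with earlier results of these data known. Genes named were the 10 with the highest mean in maternal-cross wild-type F2, the 5 with the highest ratio, the 2 with the largest called change in each direction and comparison, those next to the ratio threshold and called list genes; others were named after their values were seen. Errors are approximate SE, worked back from each log2 fold change and the statistic of its edgeR quasi-likelihood test. They were not read from the fit itself. Every group had 3 libraries except pptr-1 F6. No sequences are shown.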

Additional observations from a re-analysis of the deposited data

How the results depend on the processing

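Numbers below count features past an adjusted p of 0.05 with edgeR, first among the 31 genes and then over all features. With one library left out at a time the counts were 15 to 22 and 228 to 522 for mutant F2 between crosses, 18 to 24 and 1729 to 2608 for long-term mutants against SX1263, and 10 to 16 and 182 to 938 for F15 against long-term. They were 7 to 11 and 506 to 906 for F15 against SX1263, 0 in each and 3 to 20 for maternal-cross mutant F2 against long-term, and 5 to 7 and 334 to 809 for paternal-cross mutant F2 against SX1263. They were 2 to 6 and 41 to 94 for F15 against paternal-cross mutant F2, and 6 to 9 and 435 to 618 for pptr-1. Scaling by total counts gave 797 features for mutant F2 between crosses and 940 for F15 against long-term. It moved the median of all features by -0.27 and 0.28 there, by -0.43 for long-term against SX1263, and by -0.15 and -0.17 for F15 and paternal-cross mutant F2 against SX1263; the called features then split into 159 higher and 638 lower, 765 and 175, 432 and 2607, 181 and 687, and 191 and 594. Relative log expression scaling gave 272 higher and 580 lower for paternal-cross mutant F2 against SX1263. Without the filter, all-feature counts were 1250 for mutant F2 between crosses and 1320 for F15 against long-term, and the counts for genes and features were 19 and 1399 for F15 against SX1263, 1 and 358 for maternal-cross mutant F2 against long-term, 16 and 1474 for paternal-cross mutant F2 against SX1263, 11 and 546 for F15 against paternal-cross mutant F2, and 16 and 1377 for pptr-1. DESeq2 called 84 features for maternal-cross mutant F2 against long-term, 188 for F15 against paternal-cross mutant F2 and 1061 for pptr-1. With only the groups compared, 337 features were called for mutant F2 between crosses, 218 for F15 against long-term, 11 genes for paternal-cross mutant F2 against SX1263, 0 genes and 11 features for F15 against paternal-cross mutant F2 and 6 genes for pptr-1. With the replicate block the counts were 332 features for mutant F2 between crosses, 1036 for F15 against long-term, 4 genes and 493 features for F15 against SX1263, 2 genes and, over all features, 78 higher and 41 lower for maternal-cross mutant F2 against long-term, 4 and 116 for paternal-cross mutant F2 against SX1263, 0 and 8 for F15 against paternal-cross mutant F2 and 16 genes for pptr-1. Same-numbered deviations correlated at -0.122 to 0.078 for mutant F2 between crosses and -0.308 and -0.182 for paternal-cross mutant F2 against SX1263, and ZC15.1 had a blocked edgeR adjusted p of 0.0727 there. In the other 5 comparisons they ranged from -0.085 to 0.346, and where 3 numbers were shared not every library correlated best with its own number. For pptr-1 against its wild type only numbers 1 and 5 were shared, and same-numbered libraries correlated at 0.274 and 0.346. Unlike numbers correlated there at -0.361 to 0.1. The pptr-1 block fit gave 16 genes where the main fit gave 10. It used only replicates 1 and 5 of the groups compared, so the block was not the only change. What these numbers share was not tested. The change of mpz-1 between crosses in mutant F2 ranged from -0.36 to 0.64, at 0.00 without paternal-cross replicate 4. The cause of these moves was not tested.

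Depth limits the low genes most. The long-term strain rests on 2 deep libraries and 1 of 126214 counts, and at 3 counts a gene stands at 23.8 CPM in it but at no more than 1.12 CPM in any other library. In mutant F2 of the paternal cross gst-37, R03D7.15, D1054.5, T05C3.2, exc-12 and mpz-1 had at most 15 counts in any library.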
